A study of Mus musculus with 6 samples.

Results

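The 33 genes described here encode nuclear receptors, transcription factors that are switched by small lipid-soluble ligands or act without a known ligand, and the coregulators that bind to them. They were chosen by name from the 53801 genes of the deposited count table. By role they are 5 retinoid receptors or retinoid X receptors, 3 receptors for thyroid hormone or vitamin D, 2 lipid-sensing receptors, 3 steroid receptors, 11 receptors grouped here as orphans, 7 coactivators and 2 corepressors. Of the 33, 32 had enough counts to be tested, and the exception, Nr5a2, is described with its counts.

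The cells were from the stromal vascular fraction of mouse inguinal white fat, which is what remains of the tissue without its mature adipocytes and holds adipocyte progenitors, and had been induced to become adipocytes in culture for 4 days. One group of 3 libraries came from Ythdf1 knockout mice and the other, also of 3, from wild-type mice, and the series calls the replicates biological. YTHDF1 binds messenger RNA that carries the m6A methyl mark. The sources used here do not give the allele, strain, age or sex of the mice, or say whether animals were pooled. The Y-linked gene Ddx3y was between 117 and 131 CPM in every library and Xist at most 1.70 CPM.

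Nuclear receptors bind short DNA repeats, many of them as a pair with a retinoid X receptor. Without ligand several of them hold corepressors such as the product of Ncor1, and ligand exchanges these for coactivators of the p160 family and for the Mediator complex, which contacts RNA polymerase II. In fat, receptors of this class, PPARγ above all, govern adipocyte formation and lipid storage. Retinoid, vitamin D and NR2F2 signalling have been described as restraining adipogenesis.

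Values are CPM, read counts scaled to a common library size. Fold changes are knockout over wild type with their standard error after ±, means of CPM or percent carry the SD of 3 libraries, and coordinates are those of GRCm38. The threshold for a change was 0.05 for the Benjamini-Hochberg adjusted p that edgeR's quasi-likelihood test gave over 14816 genes. Library totals ran from 16619605 to 20089138 counts, and 3 counts corresponded to 0.146 to 0.185 CPM. Ythdf1 itself was at 45.1, 42.8 and 43.5 CPM in the knockout and at 63.0, 62.1 and 60.4 CPM in wild type, with a log2 fold change of -0.50 ± 0.08 (edgeR adjusted p = 0.000378), so that the whole-gene count checks the labels only in part. The 2 groups of cultures also differed in cell markers. The summed level of 8 adipocyte markers was 11991 to 16813 CPM in knockout libraries and 2066 to 3255 CPM in wild type, lowest in wild-type replicate 1. That of 8 macrophage markers was 143 to 354 CPM, highest in knockout replicate 3, against 47.2 to 56.2 CPM. For 5 myofibroblast markers it was 2008 to 2562 CPM against 8290 to 10419 CPM. In such bulk RNA, fewer cells of a type and less RNA per cell cannot be told apart, and the part of these markers in the results on receptors was not tested.

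Of the 32 members tested, 8 were higher and 7 lower in the knockout. That is 46.9% of them, beside 44.3% of all genes tested, 22.6% higher and 21.7% lower, so the share called was near the background. The genotypes did not overlap for 20 members, with knockout above in 12 and below in 8, beside 55.2% of all genes. A call with at least a 2-fold change was made for 6 members, 3 in each direction, beside 15.6% of all genes. The median log2 fold change was 0.030 over the members and 0.0084 over all genes. The genes that rose were Rxrg, Thrb, Ppard, Esr1, Ncoa1, Ncoa4, Ncor1 and Nrip1, and those that fell were Rarb, Rarg, Vdr, Nr2f1, Nr2f2, Nr4a2 and Ncoa3.

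**Figure D1:**
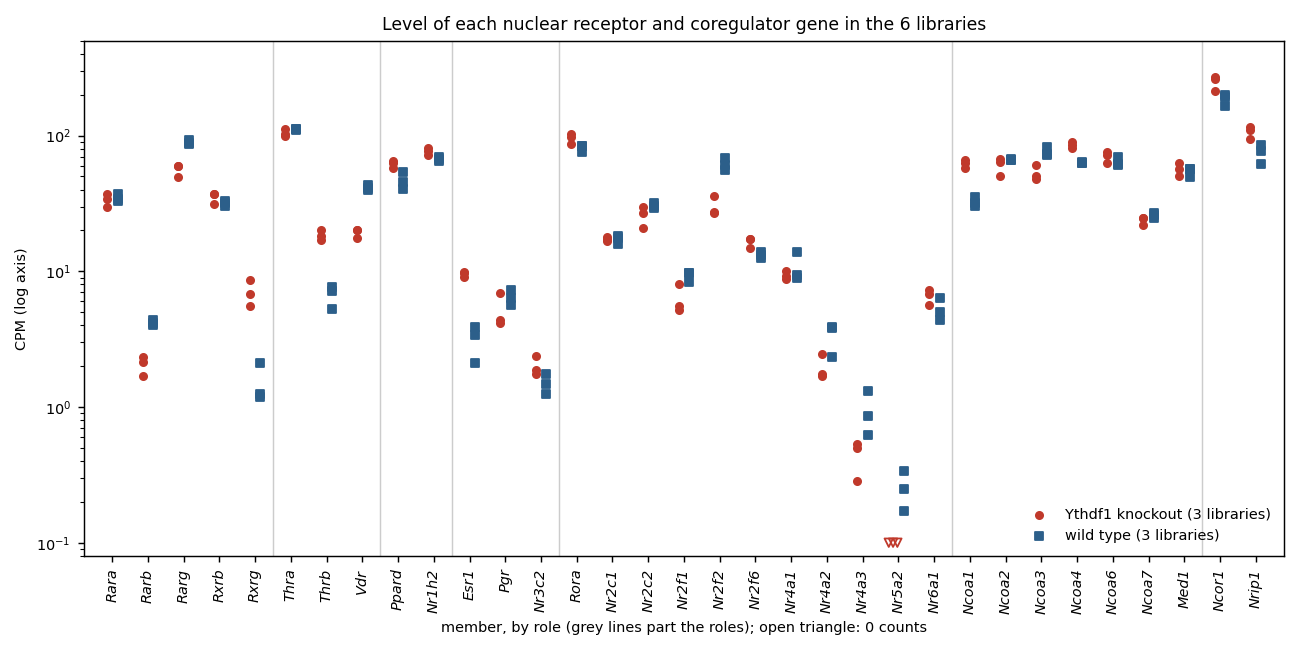
Level of each member in the 6 libraries, as CPM on a log axis, with knockout libraries as red circles and wild-type libraries as blue squares, ordered by role. The genotypes stand apart for Rxrg, Thrb, Vdr, Esr1, Nr2f2 and Ncoa1, and Nr5a2 had 0 counts in every knockout library.

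Among the retinoid receptors, which bind retinoic acid and pair with retinoid X receptors, the 2 genes Rarb and Rarg were lower in the knockout while Rara differed little. Rarb is a textbook case of a receptor gene that retinoic acid itself switches on, through a direct repeat just ahead of its start. That stretch is shown first, because it holds the 1 match among the members to the full receptor repeats sought. Those were direct repeats with 1, 4 or 5 bases between the copies, and GGTCA and TGACC with 3 between them. Other spacings were not sought. Promoter sequences are RefSeq's for GRCm38.p6 and were matched for 30 of the 33 members, at 46 starts. Capitals mark a direct repeat of NGNTCA with 5 bases between the copies, sought on both strands in the 250 bases before each start, and 0.776% of all 32851 starts hold it. Of the 30 members Rarb alone had a match. The stretch lies on the minus strand at chr14:16575477-16575586 and covers bases -110 to -1 before the start.
Rarb: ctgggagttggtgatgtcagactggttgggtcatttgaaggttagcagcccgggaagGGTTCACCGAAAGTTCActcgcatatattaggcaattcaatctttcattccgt

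Rarb (chr14:16430839-16819156, minus strand) was at 2.14, 1.70 and 2.34 CPM in knockout replicates 1 to 3 and at 4.02, 4.39 and 4.17 CPM in wild type. Every knockout library was below every wild-type library, at raw counts of 30 to 48 against 71 to 73. The log2 fold change was -1.02 ± 0.23 (edgeR adjusted p = 0.00429). Of the exon bases of Rarb, 34.1% overlap exons of Top2b on the other strand, and Top2b also fell, by 0.36 on the log2 scale (edgeR adjusted p = 0.00297). The sources used here do not give the strand setting of the counting, so reads of the 2 genes may not have been told apart.

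Rarg (chr15:102234938-102257517, minus strand), the most abundant of the 3 receptors per length of exon, was at 59.6, 49.5 and 59.5 CPM in knockout libraries and 88.3, 86.8 and 92.4 CPM in wild type. The genotypes did not overlap, and the log2 fold change was -0.66 ± 0.09 (edgeR adjusted p = 0.000145). Rara was at 37.2, 29.7 and 34.0 CPM against 33.03, 33.9 and 37.2 CPM, with overlapping genotypes and a log2 fold change of -0.045, whose 95% interval ran from -0.27 to 0.18 (edgeR adjusted p = 0.76). Per kilobase of exon, the summed level of the 3 genes was 21.3 ± 2.23 CPM in knockout libraries and 29.7 ± 1.14 CPM in wild type (SD, n = 3). Rara made up 36.2% ± 1.07 of that sum in knockout and 26.8% ± 0.713 in wild type, and Rarg 62.0% ± 0.955 against 70.5% ± 0.709.

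The retinoid X receptors, the shared partners of retinoid, thyroid hormone, vitamin D, liver X and PPAR receptors, are encoded by 3 genes. Rxrg (chr1:167598384-167639623, plus strand) rose by the most of all members and was at 6.82, 8.64 and 5.56 CPM in knockout against 1.19, 2.10 and 1.26 CPM in wild type. Even the lowest knockout library was over the highest wild-type one, and the log2 fold change was 2.21 ± 0.28 (edgeR adjusted p = 6.9e-05), a fold of 4.62 with a 95% interval from 3.04 to 7.03. Rxrb was at 37.0, 37.2 and 31.5 CPM against 30.3, 32.8 and 32.1 CPM and did not pass (log2 fold change 0.15, edgeR adjusted p = 0.238). The abundant form Rxra, which is not among the 33, rose from 78.7 ± 6.12 to 99.9 ± 1.88 CPM (log2 fold change 0.34 ± 0.08, edgeR adjusted p = 0.00611). Rxrg therefore remained the smallest of the 3 per length of exon, at 10.05% ± 1.88 of their summed level in knockout and 2.84% ± 0.835 in wild type.

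The thyroid hormone receptor genes also differed from each other. Thrb (chr14:17660261-18038090, plus strand), the form that carries much of the hormone's effect on liver lipid metabolism, was at 17.0, 18.1 and 20.2 CPM in knockout against 5.32, 7.11 and 7.66 CPM in wild type. All knockout libraries were higher, and the log2 fold change was 1.46 ± 0.16 (edgeR adjusted p = 2.2e-05). Thra, the main form in these cells, was at 111, 99.7 and 103 CPM against 112, 109 and 113 CPM. It did not pass, with a log2 fold change of -0.091 and a 95% interval from -0.27 to 0.08 (edgeR adjusted p = 0.388). Exons of Thra overlap the antisense gene Nr1d1 over 5.7% of their length. The share of Thrb in the level of both genes per length was 9.94% ± 1.12 in knockout and 3.61% ± 0.643 in wild type, while their sum was 25.1 ± 1.18 against 25.0 ± 0.396 CPM per kilobase.

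Vdr, the vitamin D receptor gene (chr15:97854425-97910630, minus strand), fell. It was at 20.2, 20.2 and 17.5 CPM in knockout libraries and 41.3, 39.9 and 43.4 CPM in wild type. These are tight groups that lie far apart, and the log2 fold change of -1.11 ± 0.10 had the smallest p of all members (edgeR adjusted p = 5.8e-06).

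The half-site AGGTCA, the core on which most of these receptors sit, was found on either strand before starts of 6 member genes, at 13.0% of the members' starts beside 14.0% of all starts. It is shown in capitals for the 3 receptor genes of the preceding paragraphs that hold it. All 3 were called, beside 46.9% of the members tested and 44.3% of all genes, and are too few to compare with those shares. The other members with the half-site were Ncoa4, which rose, Nr6a1, which did not pass, and Nr5a2, which was not tested. A link between the half-site and a change in level was not tested. The Rxrg stretch is chr1:167618145-167618214 on the plus strand, with the match from base -88. That of Thrb is chr14:17660740-17660809 on the plus strand (-184), and that of Rarg chr15:102257713-102257772 on the minus strand (-225), where the half-site reads on the opposite strand.
Rxrg: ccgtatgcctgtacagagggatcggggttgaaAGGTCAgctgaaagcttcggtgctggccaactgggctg
Thrb: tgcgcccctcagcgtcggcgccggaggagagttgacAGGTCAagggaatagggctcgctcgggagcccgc
Rarg: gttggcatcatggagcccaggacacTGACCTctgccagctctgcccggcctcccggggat
No member start held a direct repeat of NGNTCA with 1 or 4 bases between the copies, or GGTCA and TGACC with 3 bases between them, an inverted repeat, which 1.01%, 0.694% and 0.0639% of all starts hold. The half-site can form part of each of these repeats. A match describes letters and is not a measured binding site.

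The lipid-sensing receptors differed less. Ppard, the widely expressed PPAR that responds to fatty acids, was at 65.4, 57.8 and 62.8 CPM in knockout libraries and 40.7, 45.8 and 54.1 CPM in wild type. The groups did not overlap, and the log2 fold change was 0.40 ± 0.11 (edgeR adjusted p = 0.0101). Per length of exon, Ppard was 14.8% ± 1.98 of the level of the 3 PPAR genes in knockout and 37.7% ± 2.43 in wild type, while Pparg, the adipocyte form, rose by 2.14 on the log2 scale (edgeR adjusted p = 1.27e-06). Nr1h2, the widely expressed liver X receptor that responds to oxidised cholesterol, was at 81.5, 77.0 and 72.4 CPM against 65.5, 66.8 and 69.6 CPM. Its groups did not overlap, yet it did not pass (log2 fold change 0.19, edgeR adjusted p = 0.0727). It did without knockout replicate 3 (0.0424) and in limma-voom (0.0132).

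Of the steroid receptors, Esr1, the estrogen receptor α gene (chr10:4611593-5005614, plus strand), rose. It was at 9.73, 9.15 and 9.89 CPM in knockout libraries and 2.09, 3.40 and 3.89 CPM in wild type. The log2 fold change was 1.62 ± 0.22 (edgeR adjusted p = 0.000115), and every knockout library exceeded every wild-type one by more than the spread within either group. Pgr, the progesterone receptor gene and a known estrogen target, was at 4.40, 4.15 and 6.97 CPM against 5.66, 7.23 and 6.40 CPM. Knockout replicate 3 overlapped the wild-type libraries, and the log2 fold change of -0.31 did not pass (edgeR adjusted p = 0.295). Without that library it was -0.58 and passed (edgeR adjusted p = 0.0347), as it also did in limma-voom (-0.49, 0.0452). Nr3c2, the mineralocorticoid receptor gene, was low, at 1.76, 1.88 and 2.39 CPM against 1.75, 1.48 and 1.26 CPM, and did not pass (log2 fold change 0.42, edgeR adjusted p = 0.274). Esr1 is also a gene of mammary epithelium. Of 10 mammary and other epithelial markers, 5 could be tested, of which 1 rose and 3 fell, 80.0% called beside 44.3% of all genes. Elf5 was at 0 counts in every library and Krt5 in the knockout, and Epcam was at 0.0677 ± 0.0737 CPM in knockout libraries and 3.83 ± 0.839 CPM in wild type. The summed level of that list was 108 to 126 CPM in knockout libraries and 63.1 to 92.3 CPM in wild type, with most of it from Prlr and Krt19, and the part of these markers in the rise of Esr1 was not tested.

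**Figure D2:**
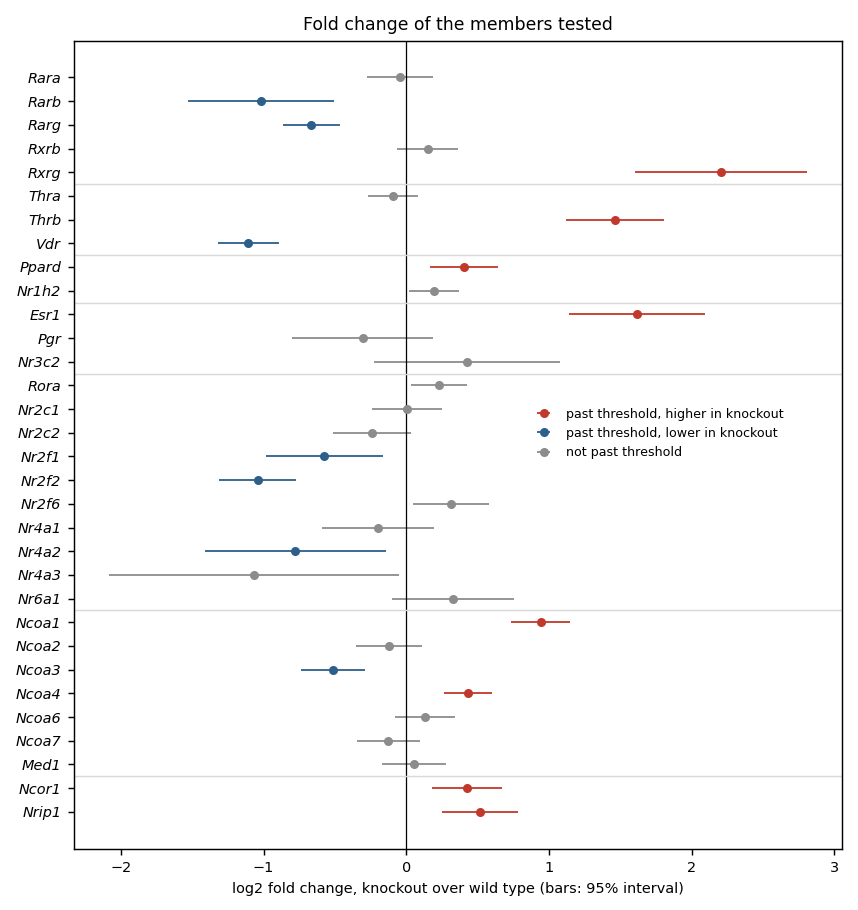
Log2 fold change, knockout over wild type, of the 32 members tested, with 95% intervals that are not adjusted for the number of genes and with roles parted by grey lines. Red and blue mark members past the threshold, from -1.11 for Vdr to 2.21 for Rxrg, and grey marks the rest.

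Of the 10 orphan receptors tested, 3 fell and 0 rose, which is 30.0% called beside 44.3% of all genes and so not a higher share than the background. Nr2f2 (chr7:70351944-70366735, minus strand), also called COUP-TFII, has been described as a brake on adipogenesis and is known as a marker of mesenchymal and venous cells. It was at 27.0, 27.2 and 35.6 CPM in knockout libraries and 55.9, 60.4 and 68.9 CPM in wild type. The groups lay well apart, with a log2 fold change of -1.04 ± 0.12 (edgeR adjusted p = 4.8e-05). Its paralog Nr2f1 was at 5.22, 8.01 and 5.51 CPM against 9.78, 8.40 and 9.66 CPM. Knockout replicate 2 came close to wild-type replicate 2, and the fall of 0.57 on the log2 scale was less secure (edgeR adjusted p = 0.027). It did not pass without knockout replicate 1 (0.113) or 3 (0.0687) or without wild-type replicate 1 (0.0771) or 3 (0.076). The third of these paralogs, Nr2f6, was at 14.7, 17.2 and 17.2 CPM against 12.6, 13.2 and 13.8 CPM. Its groups did not overlap but it did not pass (log2 fold change 0.31, edgeR adjusted p = 0.0549), and passed without knockout replicate 1 (0.0488). Of its exon bases, 54.4% overlap Ocel1 on the other strand. Per length of exon, Nr2f2 went from 53.3% ± 1.85 of the level of the 3 genes in wild type to 34.0% ± 3.83 in knockout, and Nr2f6 from 33.02% ± 1.06 to 53.9% ± 1.30. Summed, 6 endothelial markers were at 24.4 to 34.9 CPM in knockout libraries and 22.4 to 28.6 CPM in wild type (1 higher, 0 lower). Likewise 8 fibroblast progenitor markers were at 3889 to 4005 CPM against 4544 to 4595 CPM (0 higher, 4 lower). The part of these markers in the fall of Nr2f2 was not tested.

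The NR4A genes are immediate early genes, switched on within minutes by hormones and cyclic AMP, and their products need no ligand. Their upstream sequences are shown because they share a feature, 4 copies each of TGACG, the half-site of the cyclic AMP response element, in capitals on either strand. Of all 32851 starts 17.8% hold at least 1 copy, and 45 starts (0.137%) hold 4 or more, of which these are 3. The stretches cover bases -250 to -1, at chr15:101266596-101266845 on the plus strand for Nr4a1, chr2:57124004-57124253 on the minus strand for Nr4a2 and chr4:48045055-48045304 on the plus strand for Nr4a3.
Nr4a1: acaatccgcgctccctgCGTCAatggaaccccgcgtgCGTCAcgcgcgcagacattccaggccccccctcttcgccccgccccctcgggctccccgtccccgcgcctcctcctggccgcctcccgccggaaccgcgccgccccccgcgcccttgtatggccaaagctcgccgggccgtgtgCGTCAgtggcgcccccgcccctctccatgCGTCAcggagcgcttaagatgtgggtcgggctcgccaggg
Nr4a2: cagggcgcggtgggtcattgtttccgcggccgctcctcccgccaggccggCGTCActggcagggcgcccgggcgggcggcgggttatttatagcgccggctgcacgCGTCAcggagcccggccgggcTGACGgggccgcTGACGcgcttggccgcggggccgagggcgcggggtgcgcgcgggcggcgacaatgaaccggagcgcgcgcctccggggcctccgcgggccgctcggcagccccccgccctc
Nr4a3: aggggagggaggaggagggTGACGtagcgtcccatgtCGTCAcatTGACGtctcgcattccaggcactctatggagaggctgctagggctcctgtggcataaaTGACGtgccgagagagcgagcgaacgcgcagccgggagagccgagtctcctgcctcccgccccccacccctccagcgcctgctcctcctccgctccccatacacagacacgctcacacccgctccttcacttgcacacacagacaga

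All 3 NR4A genes were low. Nr4a1 was at 8.80, 10.1 and 9.26 CPM in knockout libraries and 13.9, 9.45 and 8.92 CPM in wild type, with wild-type replicate 1 above the rest, and did not pass (log2 fold change -0.20, edgeR adjusted p = 0.407). Nr4a2 was at 1.70, 2.44 and 1.75 CPM against 3.85, 2.35 and 3.89 CPM. Its groups overlapped, since wild-type replicate 2 lay below knockout replicate 2. The fall of 0.78 on the log2 scale was at the edge of the threshold (edgeR adjusted p = 0.0464) and did not pass in DESeq2 (0.0788), in limma-voom (0.0629), or without knockout replicate 1 (0.14) or 3 (0.0982) or wild-type replicate 1 or 3 (0.142 each). Nr4a3, with 5 to 11 raw counts in knockout and 11 to 23 in wild type, did not pass (log2 fold change -1.07, edgeR adjusted p = 0.0825).

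Other orphan receptors did not pass. Rora, which activates clock genes, was at 103, 87.3 and 96.9 CPM against 84.3, 76.3 and 84.1 CPM, with groups that did not overlap (log2 fold change 0.23, edgeR adjusted p = 0.0535). It passed without knockout replicate 2 (0.0138) and in limma-voom (0.00444). The testicular receptor genes Nr2c1 and Nr2c2 were at 17.3 ± 0.598 against 17.3 ± 1.32 CPM and at 25.9 ± 4.52 against 30.6 ± 1.13 CPM, with overlapping groups (edgeR adjusted p = 0.973 and 0.143). Without knockout replicate 3, Nr2c2 was lower by a log2 fold change of -0.36 and passed (0.0309). Of its exon bases, 30.7% overlap Mrps25 on the other strand. Nr6a1, known as the germ cell nuclear factor gene, was at 6.59 ± 0.813 against 5.25 ± 1.03 CPM (log2 fold change 0.33, edgeR adjusted p = 0.201) and passed in limma-voom (0.50, 0.0312).

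Nr5a2, a receptor of liver, pancreas and gut lining, had 0 counts in each knockout library and 6, 4 and 3 counts in wild type, too few to be tested. Taking 3 counts over the group as the limit that 0 allows, the wild-type level was 4.75 times the knockout limit. That takes in the counting error of the knockout only. The error of the 13 wild-type counts and the spread between libraries are left out, so the true fold may be smaller. Of 9 gut lining markers 7 could be tested, and of these 5 fell and 1 rose, 85.7% called beside 44.3% of all genes. Their summed level was 24.0 to 24.7 CPM in knockout libraries and 46.0 to 50.5 CPM in wild type. Cdx2 was at 0 counts in all knockout libraries. The median log2 fold change of the markers tested was -3.91, a steeper fall than that of the summed level. Hnf4a, a receptor gene of the same organs, was at 0.142 ± 0.026 CPM in knockout libraries and 1.72 ± 0.407 CPM in wild type. The part of such markers in the count of Nr5a2 was not tested.

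Of the 7 coactivators, 2 rose, 1 fell and 4 did not pass, a share of 42.9% called beside the 44.3% of all genes. Ncoa1 (chr12:4247362-4477182, minus strand), a p160 coactivator also called SRC-1 that brings histone acetylation to bound receptors, had the largest rise. It was at 66.2, 57.7 and 62.9 CPM in knockout libraries and 30.3, 31.8 and 35.1 CPM in wild type. All knockout values were well over all wild-type values, and the log2 fold change was 0.94 ± 0.09 (edgeR adjusted p = 1.3e-05). Ncoa3 (chr2:165992636-166073242, plus strand), its p160 relative SRC-3, fell, at 50.7, 47.7 and 60.2 CPM against 71.8, 73.4 and 81.7 CPM, with a log2 fold change of -0.52 ± 0.10 (edgeR adjusted p = 0.00169). Ncoa2, the remaining relative, was at 64.2, 50.7 and 67.3 CPM against 66.9, 65.9 and 65.7 CPM and did not pass (log2 fold change -0.12, 95% interval -0.35 to 0.11, edgeR adjusted p = 0.377). The summed level of the 3 per kilobase of exon was 17.8 ± 1.67 CPM in knockout libraries and 17.6 ± 0.931 CPM in wild type, and it was their make-up that differed. Ncoa3 led in every wild-type library with 53.8% to 55.5% of the sum, and Ncoa1 held 20.9% to 21.98%. In the knockout libraries Ncoa1 held 38.1% to 42.3% and Ncoa3 35.2% to 39.6%, with Ncoa1 ahead in replicates 1 and 2.

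Ncoa4, a weak coactivator best known as the receptor that delivers ferritin to lysosomes, was at 84.9, 81.7 and 89.3 CPM in knockout libraries and 62.8, 64.0 and 62.8 CPM in wild type, with a log2 fold change of 0.43 ± 0.08 (edgeR adjusted p = 0.000866). Both groups were tight and did not overlap. Ncoa6, a subunit of a histone methyltransferase complex, was at 72.4, 62.6 and 75.1 CPM against 60.7, 61.6 and 69.6 CPM, which overlap (log2 fold change 0.13, edgeR adjusted p = 0.293). Ncoa7 did not pass either, at 23.7 ± 1.66 against 25.8 ± 1.06 CPM (0.339), nor did Med1, the Mediator subunit that receptors contact, at 56.7 ± 6.46 against 54.7 ± 4.08 CPM (log2 fold change 0.054, 95% interval -0.17 to 0.28, edgeR adjusted p = 0.70).

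Both corepressor genes rose. Ncor1, the scaffold of a histone deacetylase complex that keeps unliganded receptors silent, was at 271, 214 and 260 CPM in knockout libraries and 165, 198 and 193 CPM in wild type. The lowest knockout library was just over the highest wild-type one, with a log2 fold change of 0.42 ± 0.11 (edgeR adjusted p = 0.00928). Without knockout replicate 1 the adjusted p was 0.0529. Nrip1, also called RIP140, which represses energy-burning genes in fat, was at 110, 95.003 and 115 CPM against 61.2, 77.4 and 84.8 CPM (log2 fold change 0.52 ± 0.12, edgeR adjusted p = 0.00488). Its groups did not overlap. Of the wild-type libraries, replicate 1 was lowest for 7 of the 8 members that rose (all but Ncoa4). It was also lowest for 3 of the 7 that fell (Rarb, Nr2f2 and Ncoa3). The share over all genes was not counted, so this cannot be read as particular to the members. A link with the summed adipocyte markers, also lowest in that library, was not tested.

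**Figure D3:**
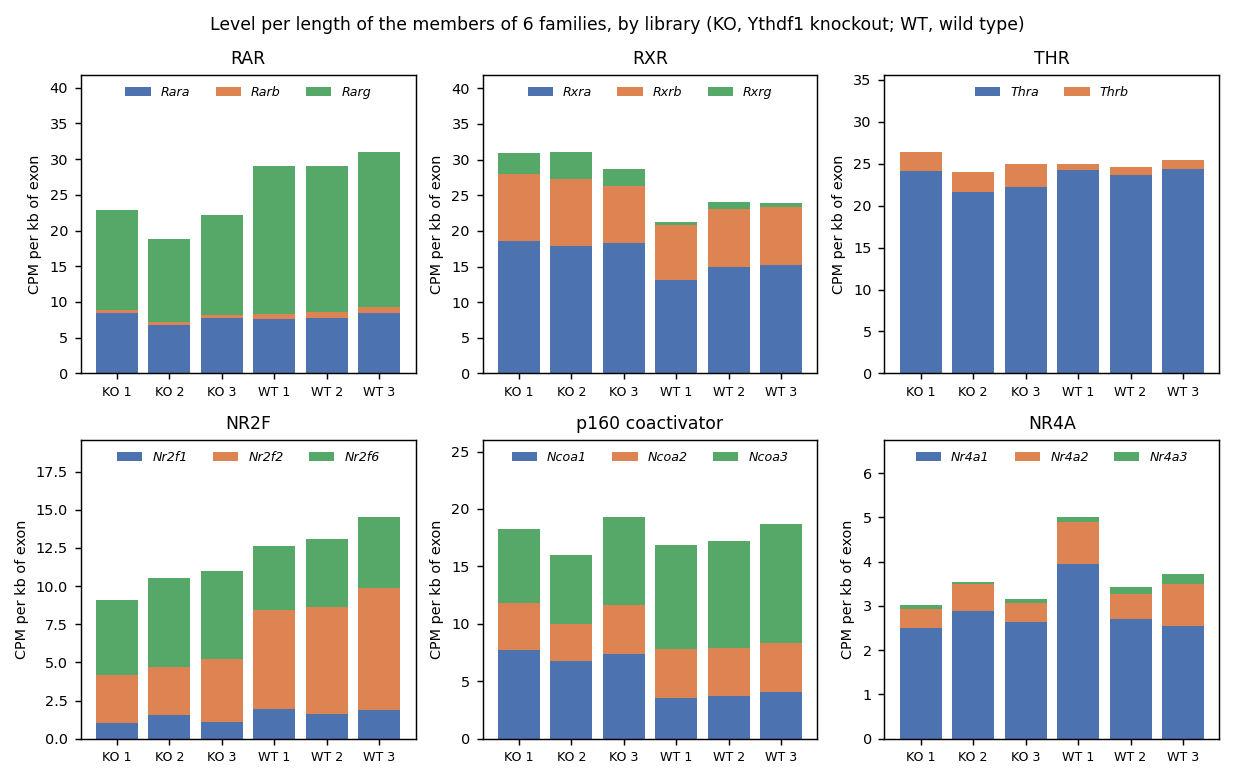
Level per kilobase of exon of the members of 6 families in each library, stacked by gene, with Rxra added to complete the RXR family. The sums for THR and p160 coactivator genes are alike in both genotypes while Thrb and Ncoa1 take a larger part of each knockout bar, and the RAR bars are shorter in knockout.

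Whether paralogs changed unequally was tested on the log2 ratio of their levels per length within each library, for 11 pairs, with a 2-sided exact permutation test over the 6 libraries. With 3 against 3 that test cannot go below 0.10, which adjustment over the 11 pairs made 0.157. The smallest p was reached for 7 pairs whose ratios did not overlap between genotypes. The ratio of Rxrg to Rxrb was 4.25-fold higher in knockout, and that of Thrb to Thra 2.97-fold higher. Ncoa3 to Ncoa1 was at 0.362 of its wild-type value, Ncoa2 to Ncoa1 at 0.474, Rarb to Rara at 0.505, Rarg to Rara at 0.6502 and Nr4a2 to Nr4a1 at 0.666. For Nr4a2 to Nr4a1 the groups nearly met, with a log2 ratio of -2.26 in knockout replicate 2 and -2.22 in wild-type replicate 2. The other 4 ratios overlapped: Nr2f2 to Nr2f1 (p = 0.20 in the exact test), Nr2c1 to Nr2c2 (0.20), Nr4a3 to Nr4a1 (0.30) and Nrip1 to Ncor1 (0.20).

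Receptors and coregulators outside the 33 were counted from lists of partners. Of 24 other nuclear receptor genes 13 could be tested, and of these 7 rose and 1 fell, which is 61.5% called. The rises included Pparg (131 ± 14.4 against 29.8 ± 5.50 CPM), Ppara (13.5 ± 4.15 against 1.18 ± 0.377 CPM, log2 fold change 3.51), the liver X receptor gene Nr1h3 (57.1 ± 6.91 against 14.7 ± 3.91 CPM, 1.96) and Esrra (1.16), which drives mitochondrial genes. The fall was Hnf4a. Nr1h2 thereby made up 50.4% ± 1.93 of the liver X receptor level per length in knockout and 77.7% ± 4.41 in wild type. Of 23 other coregulators, 6 rose and 4 fell, and the 43.5% called was near the 44.3% of all genes. Ppargc1b (30.0 ± 3.09 against 4.72 ± 1.59 CPM), Ppargc1a (15.9 ± 1.85 against 2.03 ± 1.10 CPM) and Tacc1 (log2 fold change 0.69) were higher and Pprc1 (-0.64) lower. Of 30 Mediator subunits other than Med1, 3 rose and 3 fell, with Med22 (0.59) and Med8 (0.53) higher and Med14 (-0.66) and Ccnc (-0.42) lower, and 24 did not pass. That is 20.0% called, beside the 44.3% of all genes. Without knockout replicate 1 the falls numbered 1, and limma-voom called 5 rises.

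Genes that make, carry or answer to the ligands were described in the same manner, by counts alone. Of 12 retinoid genes that could be tested of 15, 6 fell and 3 rose (median log2 fold change -0.34). That made 75.0% called, beside 44.3% of all genes. Aldh1a2, which makes retinoic acid, was at 2.68 ± 0.721 CPM in knockout libraries and 40.6 ± 1.15 CPM in wild type. Among the rises were the retinol transport gene Rbp4, at 106 ± 20.6 against 26.2 ± 1.16 CPM, and the retinol dehydrogenase gene Dhrs9 (edgeR adjusted p = 9.73e-05). Of 8 thyroid hormone genes, 3 rose and 1 fell (median 0.26). Dio3, whose product inactivates the hormone, was at 3.26 ± 0.219 against 12.8 ± 1.49 CPM, and the rises were the transporter gene Slc16a10 (0.95) and the hormone-responsive genes Me1 (2.06) and Thrsp (4.22), both of which are also general markers of fat synthesis.

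Of 7 liver X receptor target genes, 5 rose and 0 fell (median log2 fold change 1.04), among them Srebf1 (1.58), Lpcat3 (1.04) and Abcg1 (2.05). Of 8 PPAR targets, 6 rose and 1 fell (median 1.45), among them the lipid droplet gene Plin2 (1.66). These target lists had 71.4% and 87.5% called, while over all genes 22.6% rose and 21.7% fell. Fabp4, in the PPAR list, is also among the 8 adipocyte markers whose summed level was higher in the knockout. The part of those markers in the rises of both target lists was not tested. The fall among the PPAR targets was lost without knockout replicate 1, knockout replicate 2 or wild-type replicate 2. Vitamin D genes were mostly too low to test, with Spp1 lower (-1.05), Cyp2r1 not past the threshold and the target Cyp24a1 at no more than 1 count in any library. Of 10 steroid supply and response genes, 2 rose, Hsd11b1 (0.57) and Per1 (0.47), and 1 fell, Sgk1, a mineralocorticoid and glucocorticoid target, at 38.8 ± 3.20 against 106 ± 12.1 CPM. That is 30.0% called, beside 44.3% of all genes, and the number of rises in this list rested on single libraries. It was 0 without knockout replicate 2, 1 without knockout replicate 1 or without wild-type replicate 1 or 2, 4 without wild-type replicate 3, 1 with the replicate block and 5 in limma-voom. The estrogen target Greb1 did not pass, at 13.6 ± 1.19 against 10.9 ± 1.66 CPM (edgeR adjusted p = 0.105). Of 10 immediate early genes, with which NR4A genes are commonly induced, Atf3 (1.98), Fosl1 (1.01) and Jun (0.33) rose, Fosb fell (-1.43) and 6 did not pass. That is 40.0% called, and without knockout replicate 3 the falls numbered 3.

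**Figure D4:**
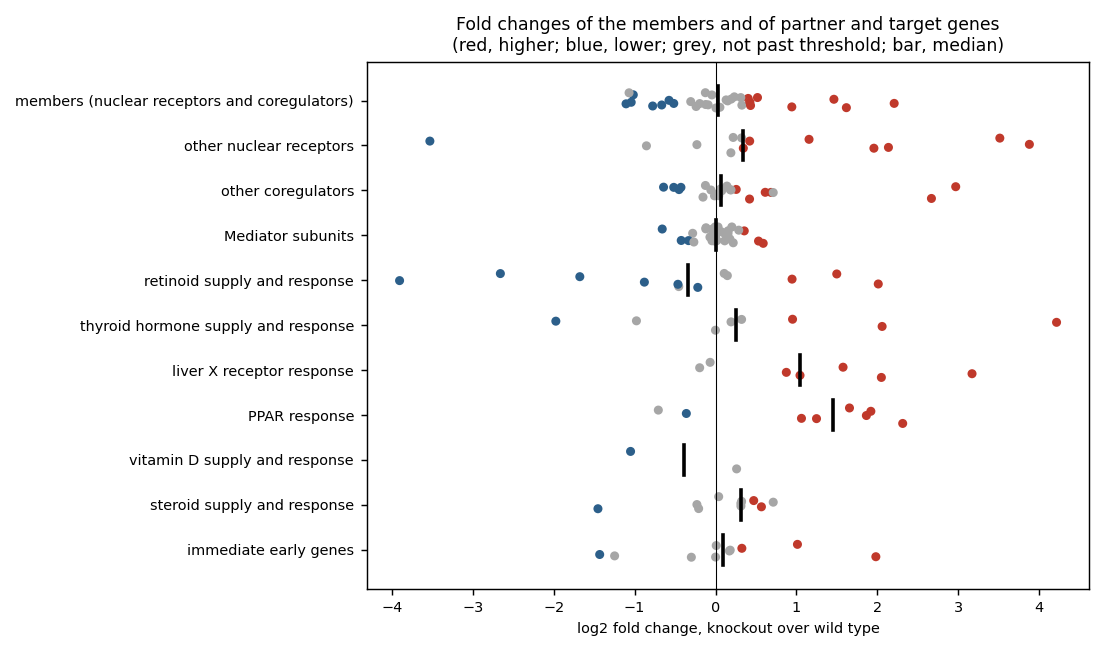
Log2 fold change of each tested gene in the member list and in the 10 partner and target lists, 1 point per gene, with the median as a black bar. Members and Mediator subunits centre near 0, while liver X receptor and PPAR targets centre at 1.04 and 1.45.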

How the data were processed

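Total RNA without ribosomal RNA was sequenced in read pairs of 150 bp per the labels' protocols. The authors deposited raw counts per Ensembl gene, made with STAR and featureCounts on mm10 (GRCm38) per the submitters' processing notes. The sources used here do not give versions, annotation or strand setting. Columns were matched to samples by name, and symbols, coordinates and merged exon lengths came from GENCODE mouse release 21, which held 53706 of 53801 identifiers.

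Counts were filtered with filterByExpr (minimum count 10), scaled with TMM and tested with edgeR 4.0.16 (R 4.3.3), legacy robust quasi-likelihood, 2-sided, genotype as the single term, with Benjamini-Hochberg adjustment over 14816 genes. DESeq2 1.42.0 and limma 3.58.1 served as alternatives. Levels between genes were compared as CPM per kilobase of merged exons. Replicates differed beyond counting noise, with a chi-square per degree of freedom of 9.30 to 23.9 within genotypes. P-values do not cover differences in isolation or culture that coincided with genotype.

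Members, lists and motifs were chosen with earlier results of these data known. All members are named; from each partner list up to 4 tested genes with the smallest p are named, and others (Rxra, Cyp24a1, Greb1, Hnf4a, Top2b, marker genes) were chosen after seeing their values. A few genes of the lists are counted but not reported here by name.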

Additional observations from a re-analysis of the deposited data

How the results depend on the processing

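Of the 15 calls among the members, 12 held in each of 16 alternative fits, and none changed sign. The 3 that did not are Nr2f1, Nr4a2 and Ncor1, and 6 of the 17 tested members without a call gained one in at least 1 fit. Requiring a 2-fold change left 3 higher and 3 lower members, 1326 and 991 of all genes, and 23 and 8 of the partner and target genes, of which 38 and 19 were called otherwise. Signs changed only for members without a call: Rara, Nr2c1 and Med1, which were near 0, and Nr4a1. Nr4a1, at -0.20 in the main fit, changed sign only without wild-type replicate 1. The log2 fold change of Rara was 0.038 in limma-voom and ran from -0.12 to 0.038 with 1 library left out. That of Nr2c1 was -0.048 with upper-quartile scaling, -0.027 in limma-voom and -0.059 to 0.048 with 1 library left out. That of Nr4a1 ran from -0.32 to 0.029, and that of Med1 from -0.029 to 0.14, with -0.00021 under upper-quartile scaling. Under that scaling 44.8% of the calls over all genes were higher, beside 50.9%. Removing the 50 most abundant genes before scaling, an alternative chosen after seeing the data, left all 15 member calls.

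Replicate numbers were not treated as pairs in the main fit. The deviations of same-numbered libraries correlated at -0.154, 0.0195 and -0.156, and those of other pairs across genotypes at -0.0532 to 0.164. These values cannot tell whether the cultures were prepared in pairs. With the replicate block 8 members were higher and 6 lower, Nr4a2 being lost (adjusted p = 0.0828), and 3136 and 2993 of all genes. The signs of the paralog ratios held with 1 library left out. The block and the exon lengths cannot change these differences, by construction. Without the low-count filter Nr5a2 was called too (edgeR adjusted p = 0.0171), on 0 counts in knockout and 13 in wild type. DESeq2, also run without that filter, did not call Nr5a2. With a filter of 1 CPM in 3 libraries Nr4a3 was not tested. For members at under 5 CPM, such as Nr3c2 and Nr4a3, depth limits what change could be seen.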
